A study of Mus musculus with 6 samples.

Results

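Classical cadherins and the catenins that bind them were measured as RNA in monocytes taken from the mandible and from the femur of C57BL/6 mice (C57Bl/6J in the study's methods) aged 1 year. The 9 genes described here are the cadherins Cdh1, Cdh2, Cdh3, Cdh11 and Cdh13 and the catenins Ctnna1, Ctnnb1, Ctnnd1 and Jup, found by gene name among the 57010 genes of the count table. Mandibular-derived monocytes gave 3 libraries (S16, S19 and S23) and femur-derived monocytes another 3 (S13, S15 and S18), none from a treated animal as far as the labels say, and the monocytes of both sites were enriched by holding back other marrow cells on a magnetic column. The methods name male and female mice but the labels give no sex, animal or batch for a library, so p-values measure the spread between these libraries, which may be technical. Monocytes can fuse into osteoclasts, the cells that resorb bone, and the study compared these osteoclast precursors between the jaw and a long bone.

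Cadherins are calcium-dependent proteins that hold neighboring cells together by binding to a cadherin on the next cell. Inside the cell, the tail of a classical cadherin binds p120-catenin (Ctnnd1) and either β-catenin (Ctnnb1) or plakoglobin (Jup), and α-catenin (Ctnna1) ties that complex to actin. β-catenin has another role, since the part that escapes degradation enters the nucleus and activates WNT target genes with factors of the TCF/LEF family. E-cadherin (Cdh1) and P-cadherin (Cdh3) are known from epithelia, N-cadherin (Cdh2) from nerve, muscle and mesenchyme, and cadherin-11 (Cdh11) from mesenchyme and osteoblasts. T-cadherin (Cdh13) is held by a lipid anchor and lacks the tail to which catenins bind.

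The libraries held 15718782 to 25371474 counts on genes. Of the 57010 genes, 18114 passed a filter on low counts and were tested, and 702 of these, or 3.88%, were called higher in the mandible and 236, or 1.3%, lower (938, or 5.18%, in all). A gene was called when edgeR's quasi-likelihood test gave a Benjamini-Hochberg adjusted p under 0.05 and the fold change was at least 2. Expression is given as CPM, a gene's share of all counts of its library on the usual parts-per-M scale, adjusted by TMM, the trimmed mean of M values, and all log2 fold changes are of the mandible over the femur. A pair of libraries stood apart. Femur library S15 had a count in 40494 genes, against 17481 to 23513 in the other 5 libraries, and 22095 of its genes had only 1 to 20 counts, against 2299 to 7774. Mandible library S23, the shallowest, was the only one with many Xist counts (25189, against 0 to 12) and had no count of the Y-linked gene Ddx3y (840 to 1581 in the others). By these genes S23 reads as female and the other 5 libraries as male. The sites thus differed in their make-up by sex, and the part of sex was not tested.

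All 9 genes passed the filter, and all 9 had a log2 fold change above 0. Cdh2, Cdh3 and Cdh11 were called higher in mandibular-derived monocytes. None of the 4 catenins among the 9 genes was called in either direction by this test, by DESeq2, by edgeR's exact test or by limma-voom. Of these 4, 2 had an unadjusted p under 0.05 with edgeR, as had 16.4% of all tested genes. The 3 calls among 9 genes, all toward the mandible, stand against 3.88% of all tested genes called in that direction and 5.18% in either, and against 5.62% of the 6427 tested genes that are as long as these (4384 to 11233 bases). The median log2 fold change was 2.50 over the 5 cadherins and 0.82 over the 4 catenins, against -0.038 over all tested genes. In 5 of the 9 genes every mandible library lay above every femur library, which was so in 12.7% of all tested genes. With 3 libraries a site, the exact permutation test (two-sided) cannot give a p below 0.1, and it gave 0.1 for each of these 5 genes. These are bulk libraries, in which fewer cells of a type and less RNA per cell cannot be told apart.

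**Figure D1:**
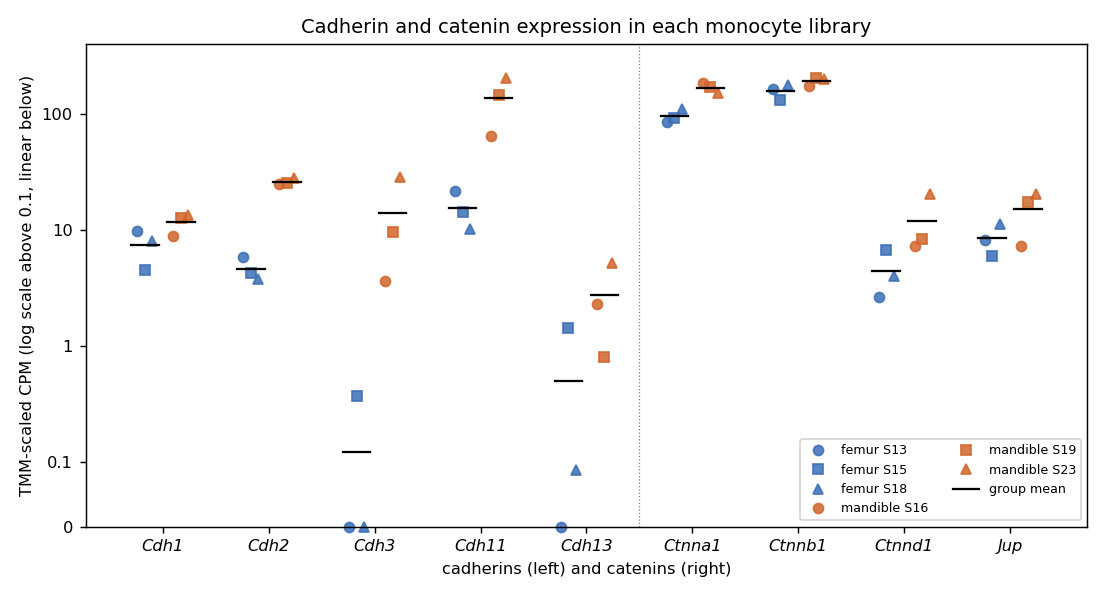
TMM-scaled CPM of the 9 genes (log scale above 0.1, linear below) in each femur library (blue) and mandible library (orange), with black bars for group means. Cdh2, Cdh3 and Cdh11 lie apart between the sites, while Ctnnb1 ranges from 130.4 to 203 CPM over all 6 libraries.

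Cdh11, the osteoblast cadherin, lies on chromosome 8 from 102632095 to 102785642 of GRCm38 (minus strand). Its expression was 21.8, 14.3 and 10.3 CPM in femur libraries S13, S15 and S18. In mandible libraries S16, S19 and S23 it was 64.9, 144.9 and 204 CPM. The sites did not overlap, and the lowest mandible library, S16, still stood above the highest femur library, S13. The mean rose from 15.4 ± 5.82 CPM at the femur to 138 ± 69.6 CPM at the mandible (SD, n = 3 each), 8.93-fold (log2 fold change 3.16, standard error 0.44, edgeR adjusted p = 0.0017). The call was made in each of the 6 fits that left out 1 library. Gm45258, a gene model inside Cdh11 on the same strand that shares no exon base with it, had 13, 6 and 6 counts in the femur and 49, 62 and 123 counts in the mandible libraries.

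Cdh2 encodes N-cadherin and lies on chromosome 18 from 16588877 to 16809246 (minus strand). It was measured at 5.80, 4.24 and 3.80 CPM in femur libraries S13, S15 and S18. The mandible libraries S16, S19 and S23 had 24.9, 25.4 and 28.1 CPM. The 3 mandible libraries were close to each other, unlike those of Cdh11, and all lay above the femur. The mean rose from 4.61 ± 1.05 CPM at the femur to 26.2 ± 1.75 CPM at the mandible (SD, n = 3 each; log2 fold change 2.50, standard error 0.37, edgeR adjusted p = 0.0026), or 5.67-fold. It too was called in each of the 6 fits with 1 library left out.

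Cdh3, which encodes P-cadherin, lies on chromosome 8 from 106510891 to 106557297 (plus strand). It had no count in femur libraries S13 and S18 and 8 counts in S15, which is 0.369 CPM. In mandible libraries S16, S19 and S23 it had 73, 202 and 504 counts, or 3.65, 9.59 and 28.8 CPM. All femur counts of the gene thus came from S15, the library with thin counts in 22095 genes. Its log2 fold change was 6.73 (standard error 1.28, edgeR adjusted p = 0.010), with means of 0.123 ± 0.213 CPM at the femur and 14.0 ± 13.2 CPM at the mandible (SD, n = 3 each). Against 3 counts in a femur library, the upper 95% limit behind a count of 0, the mandible mean was at least 84.6-fold higher than femur libraries S13 and S18, and the lowest mandible library at least 22-fold higher. Femur S15, with 8 counts, lay above that limit, so these folds do not hold for it. These limits cover counting error only. The call was lost without mandible library S23 (edgeR adjusted p = 0.092, the highest of the 6 such fits, of which the lowest was 0.0027) and under limma-voom (adjusted p = 0.12). S23 is the only library that reads as female. Without femur library S15 the log2 fold change was 11.11.

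Cdh1, which encodes E-cadherin, is the neighbor of Cdh3 and begins 46053 bases downstream of it on the same strand of chromosome 8, from 106603351 to 106670246. It was measured at 9.78, 4.52 and 8.04 CPM in femur libraries S13, S15 and S18 and at 8.96, 12.7 and 13.4 CPM in mandible libraries S16, S19 and S23. The sites overlapped, since mandible S16 lay below femur S13. Its log2 fold change was 0.65 (standard error 0.47, edgeR adjusted p = 0.59), with means of 7.44 ± 2.68 and 11.7 ± 2.39 CPM (SD, n = 3 each).

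Cdh13 encodes the anchored T-cadherin on chromosome 8 from 118283733 to 119324921 (plus strand). It had 0, 31 and 2 counts in femur libraries S13, S15 and S18 and 46, 17 and 91 counts in mandible libraries S16, S19 and S23. Mandible S19 lay below femur S15 in CPM (0.807 against 1.43), and 93.9% of the femur counts came from S15. The log2 fold change of 2.43 had a standard error of 1.60 and was not called (edgeR adjusted p = 0.54). It was 5.68 without femur S15, still not called (edgeR adjusted p = 0.12).

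**Figure D2:**
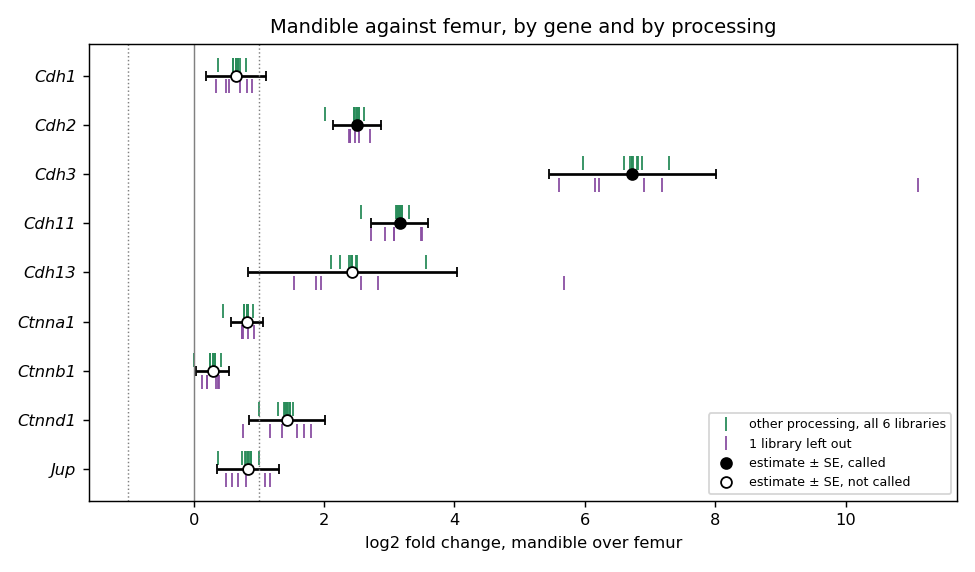
Log2 fold change of the mandible over the femur for each gene (circles, with bars of 1 standard error, filled where the gene was called). Green ticks give the same value under the other processing choices and purple ticks with 1 library left out, dotted lines mark a 2-fold change, and the far purple tick of Cdh3 at 11.11 is the fit without femur S15.

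Markers of other cell types differed between the same libraries. Of 16 mesenchymal and osteoblast markers 15 were called higher in the mandible, and their summed level was 363 to 469 CPM in the femur libraries and 9158, 12118 and 15862 CPM in mandible libraries S16, S19 and S23, led by Col1a1 and Col1a2. The remaining marker, Cxcl12, went the other way and was not called (log2 fold change -1.42, edgeR adjusted p = 0.084). It is named after its values were seen, and had 149 to 243 CPM at the femur and 34.7 to 121 CPM at the mandible. Cdh11, Cdh3 and Cdh2 were lowest in S16 and highest in S23 among the mandible libraries, as was the summed level of the 16 markers. The sums of the ameloblast and epithelial markers given next had the same order, as had Cdh1, Ctnnd1 and Jup. Cdh13, Ctnna1 and Ctnnb1 did not have it. Cdh2 differed little between the mandible libraries (24.9 to 28.1 CPM). Of 7 ameloblast markers 6 were called higher, and their sum was 0.221 to 2.81 CPM at the femur and 5756, 7338 and 11340 CPM at the mandible (S16, S19 and S23), with Odam at 0 in every femur library. Among 18 epithelial markers 12 were tested and 2, Krt14 and Krt5, were called higher (9 of 12 above 0, median log2 fold change 2.20), and the sum was 19.6 to 33.0 CPM at the femur and 109.8 to 147 CPM at the mandible. All 9 skeletal muscle markers were called higher as well. Their sum was 11 to 25.8 CPM at the femur and 3101, 1408 and 4676 CPM in mandible S16, S19 and S23, lowest in S19. The part of these cells in the cadherin differences was not tested.

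**Figure D3:**
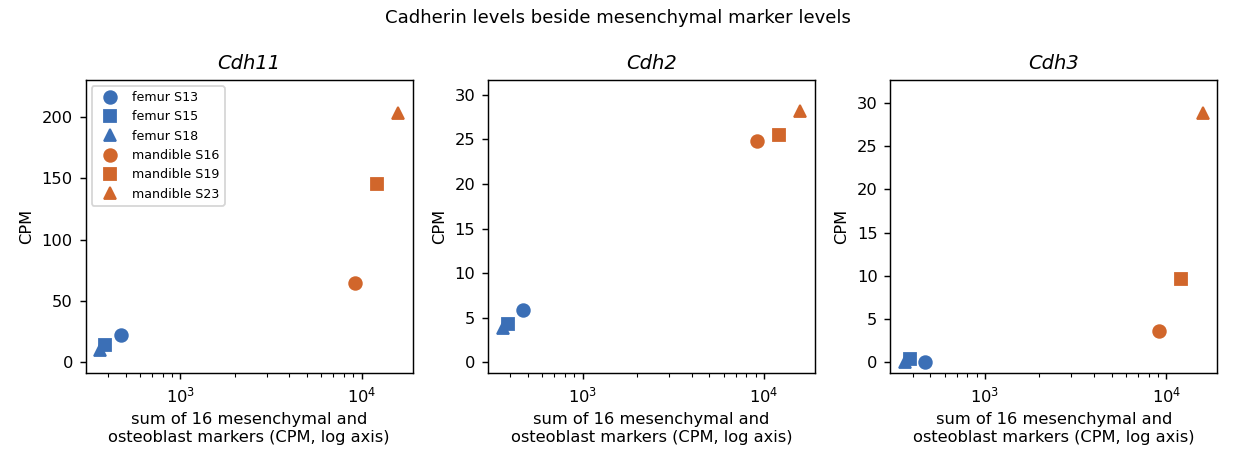
CPM of Cdh11, Cdh2 and Cdh3 in each library against the summed CPM of 16 mesenchymal and osteoblast markers (log axis), femur in blue and mandible in orange. The femur libraries sit at 363 to 469 CPM of the markers and the mandible libraries at 9158 to 15862 CPM, with no library in between.

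Of 12 monocyte markers none was called, with summed levels of 10382 to 17680 CPM at the femur and 9440 to 16946 CPM at the mandible, led by Lyz2 and Fn1, and 2 had an unadjusted p under 0.05 with edgeR. Markers called lower in the mandible were 8 of 9 tested megakaryocyte and platelet genes, 4 of 11 erythroid genes (the globins Hba-a1, Hba-a2, Hbb-bs and Hbb-bt), 1 of 10 neutrophil genes (S100a8) and 1 of 8 tested endothelial genes (Esam). No erythroid or neutrophil gene had a log2 fold change above 0, with medians of -2.30 and -1.24. With edgeR, 10 erythroid and 5 neutrophil genes had an unadjusted p under 0.05, as had 16.4% of all tested genes. The neutrophil sum was 3849 to 33038 CPM at the femur and 3941 to 10406 CPM at the mandible. A single tested gene was called higher among 6 of the B lineage (Ebf1) and among 3 of Schwann cells (Pmp22), all named here after their values were seen, and none among 7 dendritic or 7 basophil and mast cell genes, where 0 had an unadjusted p under 0.05.

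Of the 4 catenins, Ctnnb1 and Ctnna1 were the most abundant of all 9 genes per length at both sites, and the log2 fold changes of the 4 ran from 0.29 to 1.43. Ctnnb1, the gene of β-catenin on chromosome 9 from 120929216 to 120960507 (plus strand), was measured at 165, 130.4 and 176 CPM in femur libraries S13, S15 and S18. The mandible libraries S16, S19 and S23 had 174, 203 and 201 CPM. Mandible S16 lay below femur S18, so that the sites overlapped. Its log2 fold change was 0.29 (standard error 0.25, edgeR adjusted p = 0.68), and it was -0.0024 once each library's trend of expression with gene length was removed. Ulk4, on the other strand, shares 759 exon bases with Ctnnb1 and had 4 to 124 counts, against 2831 to 4285 of Ctnnb1.

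Ctnna1, which encodes αE-catenin, the link to actin, lies on chromosome 18 from 35118859 to 35254779 (plus strand). It was measured at 84.6, 93.1 and 110 CPM in femur libraries S13, S15 and S18 and at 184, 169 and 152 CPM in mandible libraries S16, S19 and S23. Every mandible library lay above every femur library, and the spread within each site was small. The means were 95.9 ± 12.9 and 168 ± 16 CPM (SD, n = 3 each), 1.76-fold apart (log2 fold change 0.81, standard error 0.25, edgeR adjusted p = 0.096), which met neither criterion of a call. DESeq2 gave an adjusted p of 0.0082 and edgeR's exact test 0.046, also at less than a 2-fold change. Over the 13 other settings with 6 libraries, the log2 fold change of Ctnna1 ran from 0.44 to 0.91. The highest adjusted p over these edgeR, DESeq2 and limma-voom fits was 0.559. With 1 library left out, the edgeR adjusted p ran from 0.103 to 0.399.

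Ctnnd1, the gene of p120-catenin, which keeps cadherins at the membrane, lies on chromosome 2 from 84600071 to 84650765 (minus strand). It had 2.65, 6.73 and 4.02 CPM in femur libraries S13, S15 and S18 and 7.31, 8.40 and 20.4 CPM in mandible libraries S16, S19 and S23. The sites did not overlap, but femur S15 and mandible S16 were close and S23 stood well above the rest. The log2 fold change was 1.43 (standard error 0.58, edgeR adjusted p = 0.24), and 0.76 without mandible S23. The annotated gene Gm28635 shares 4482 exon bases with Ctnnd1 on the same strand and had no count in any library, so the counts of Ctnnd1 depend on how reads in both genes were counted, which the methods do not give.

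Jup encodes plakoglobin, which can replace β-catenin in the junction and also sits in desmosomes, on chromosome 11 from 100368958 to 100397763 (minus strand). It was measured at 8.17, 5.94 and 11.3 CPM in femur libraries S13, S15 and S18 and at 7.36, 17.5 and 20.5 CPM in mandible libraries S16, S19 and S23. Mandible S16 fell inside the range of the femur, and the other mandible libraries lay above it. The log2 fold change of 0.83 had a standard error of 0.48 and was not called (edgeR adjusted p = 0.46).

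Levels were compared between genes as CPM per kilobase of the gene's length in the count table. In femur-derived monocytes Ctnnb1 came first, at 30.3 ± 4.58 CPM per kilobase, and Ctnna1 second, at 14.9 ± 2.01 (SD, n = 3), and their libraries did not overlap. Cdh11 (1.73 ± 0.654), Cdh1 (1.63 ± 0.586) and Jup (1.32 ± 0.419) followed, closer to each other than their spread, then Ctnnd1 (0.610 ± 0.283) and Cdh2 (0.572 ± 0.130), which did not differ beyond their spread either. Cdh13 and Cdh3 came last, at 0.0450 ± 0.0712 and 0.0280 ± 0.0485. In mandibular-derived monocytes the order was Ctnnb1 (37.1 ± 3.21), Ctnna1 (26.2 ± 2.48), Cdh11 (15.5 ± 7.82), Cdh2 (3.24 ± 0.216), Cdh3 (3.20 ± 3.0), Cdh1 (2.56 ± 0.522), Jup (2.35 ± 1.07), Ctnnd1 (1.64 ± 0.989) and Cdh13 (0.247 ± 0.199). The 5 genes from Cdh2 to Ctnnd1 in that order lay within the spread of their neighbors. The place of Ctnnd1 at either site is uncertain, since Gm28635 shares 4482 of its exon bases. How reads in both genes were counted is not known, and its level may be understated.

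On the same scale, the make-up of the 5 cadherins was described in each library, with no test. Cdh1 held 40.3, 29.7 and 51.8% of the summed level of the 5 cadherins in femur libraries S13, S15 and S18, and 14.6, 11.4 and 8.06% in mandible libraries S16, S19 and S23. Cdh11 held 46.1, 48.2 and 34.1% in the femur and 54.5, 66.5 and 63.0% in the mandible. Cadherin-11 was above E-cadherin in femur S13 and S15 and below it in S18, with ratios of 1.14, 1.62 and 0.658, and cadherin-11 was the most abundant cadherin in every mandible library. Cdh2 held 14.4 ± 1.2% in the femur and 15.2 ± 7.02% in the mandible (SD, n = 3 each). Its level relative to Cdh1 was 0.336, 0.532 and 0.268 in the femur and 1.57, 1.13 and 1.19 in the mandible, so that N-cadherin was below E-cadherin in every femur library and above it in every mandible library. Cdh3 went from at most 2.53% in a femur library to 6.23, 8.94 and 18.1% in mandible libraries S16, S19 and S23.

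The summed level of the 4 catenins was 8.80, 12.5 and 15.7 times that of the 5 cadherins in femur libraries S13, S15 and S18, and 4.8, 2.83 and 1.88 times in mandible libraries S16, S19 and S23. In sum, the cadherins stood at 4.01 ± 1.12 CPM per kilobase in the femur against 24.7 ± 11.5 in the mandible, and the catenins at 47.1 ± 5.94 against 67.3 ± 2.73 (SD, n = 3 each). These sums were not tested, and the catenin sum includes Ctnnd1 with the limit given above. The ratio was lower in each mandible library than in any femur library.

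**Figure D4:**
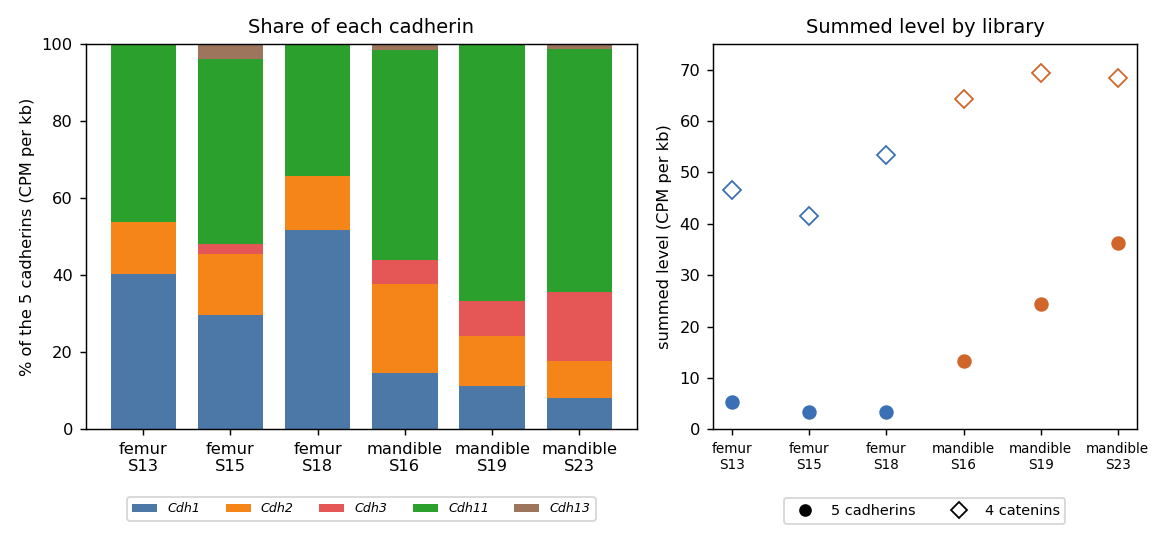
Left, share of each of the 5 cadherins in their summed CPM per kilobase in each library, where Cdh1 (blue) takes 29.7 to 51.8% at the femur but 8.06 to 14.6% at the mandible. Right, summed CPM per kilobase of the cadherins (filled circles) and of the catenins (open diamonds), femur in blue and mandible in orange.

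Genes whose CPM followed these over the 6 libraries were picked by the highest Pearson r of log2 CPM, and such values are descriptions, since the site difference alone makes many genes alike. For Cdh11 they were Enpp2, Lamb1 and Adamts2 (r from 0.998 to 0.999), and 279 tested genes had an r over 0.95. For Cdh2 they were Rcan1, Nfib and Col5a2 (r from 0.997 to 0.999, 358 genes over 0.95), and for Cdh3 they were Rspo4, Fat4, itself an atypical cadherin, and Wnt3a (r from 0.998 to 0.999, 594 genes over 0.95). Cdh1 had only 27 genes over 0.95, of which Esyt2, Bmpr1a and Kdm5b were the closest. For Cdh13 the closest were Rusc2, 9630013D21Rik and Trpa1, among 185 genes over 0.95. Among the catenins the closest were Tmem30b, Gm44185 and Vash2 for Ctnna1, Ctdsp2-ps, Slc39a1 and Igfbp4 for Ctnnb1, Ccdc102a, Abcg5 and Nbas for Ctnnd1, and Armcx4, Il7r and Nr1d2 for Jup, with 88, 30, 122 and 19 genes over 0.95.

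Other genes of the junction and of the β-catenin pathway were taken from 7 lists with 100 genes, of which 83 were tested. Of these, 9 were called higher in the mandible and none lower, 65 had a log2 fold change above 0, and the median was 0.58. Over all tested genes 3.88% were called higher and 47.8% had a log2 fold change above 0. The largest difference was in Ctnna2, which encodes αN-catenin, the α-catenin of neurons. It had 0, 20 and 0 counts in femur libraries S13, S15 and S18 and 1445, 1793 and 2202 counts in mandible libraries S16, S19 and S23. The femur counts came from S15 alone, and all mandible libraries had over 1000 counts. Its log2 fold change was 8.20 (standard error 0.92, edgeR adjusted p = 0.00042), and the mandible mean of 94.5 CPM was at least 570.0-fold above 3 counts in femur S13 or S18. Ctnna2 was called in each of the 6 fits that left out 1 library, and without femur S15 the value was 13.86. In the same list of 10 tested catenins and armadillo proteins nothing else was called (3 genes with DESeq2), and Ctnnbl1, a splicing-associated protein in spite of its name and the most abundant of the list, was at 57.8 CPM at the femur and 56.3 CPM at the mandible.

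Of 18 other cadherins, 7 were tested, 3 of them above 0, and none was called in either direction by any of the tools run, while 0 had an unadjusted p under 0.05 with edgeR. The median was -0.15. The most abundant of them, Cdh23, a cadherin of the hair cell tip link, had 75, 185 and 56 counts in femur libraries S13, S15 and S18 and 33, 51 and 40 in mandible libraries S16, S19 and S23. Its log2 fold change was -1.25 (edgeR adjusted p = 0.495). Every femur library lay above every mandible library in CPM, which was so in 11.5% of all tested genes. Cdh15, the M-cadherin of muscle precursors, had 22, 23 and 0 counts in the femur and 38, 52 and 153 in the mandible (log2 fold change 2.52, edgeR adjusted p = 0.41). Here every mandible library lay above every femur library in CPM, which was so in 12.7% of all tested genes. Cdh5, the cadherin of endothelium, named after its values were seen, had 33, 30 and 0 counts in the femur and 27, 32 and 0 in the mandible. The sum of these 18 cadherins was 26.3 CPM in femur S15 and 3.27 to 18.1 CPM in the other libraries.

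Among 17 partners of the adherens junction, all tested, Tjp1 and Nectin1 were called higher and none lower, with a median of 0.76. Tjp1, which encodes the scaffold ZO-1, had 79, 101 and 43 counts in femur libraries S13, S15 and S18 and 595, 1007 and 1394 in mandible libraries S16, S19 and S23 (log2 fold change 3.85, edgeR adjusted p = 0.00081). Nectin1, an immunoglobulin-like adhesion receptor, had 91, 161 and 167 counts in the femur and 621, 494 and 393 in the mandible (log2 fold change 1.96, edgeR adjusted p = 0.0095), and its call was lost without femur S13 or mandible S19 (edgeR adjusted p 0.0529 and 0.0575). The abundant actin-side proteins zyxin (Zyx) and vinculin (Vcl) had log2 fold changes of -0.14 and -0.36 and were not called. Of 11 desmosome genes, 7 were tested and all 7 had values above 0, with a median of 1.98 and no call, while 4 had an unadjusted p under 0.05. The most abundant were Perp (log2 fold change 2.60, edgeR adjusted p = 0.057) and the plakin Evpl (1.98, edgeR adjusted p = 0.065), while DESeq2 and edgeR's exact test each called 3 desmosome genes higher.

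All 19 genes of β-catenin degradation and of its nuclear partners were tested, 18 of them above 0, with a median of 0.68. The 5 called higher were nuclear partners, and no called gene was lower. DESeq2 and edgeR's exact test also called 5 genes of this list higher. Limma-voom and the fit with the length trend removed called 3 each. Tcf7l1, a TCF/LEF factor, had 4, 14 and 10 counts in femur libraries S13, S15 and S18 and 118, 148 and 403 in mandible libraries S16, S19 and S23 (log2 fold change 4.75, edgeR adjusted p = 0.0053). The coactivator gene Pygo1 had 0, 38 and 27 counts in the femur and 352, 227 and 551 in the mandible. Lef1, also of the TCF/LEF family, had 162, 64 and 100 counts in the femur and 366, 380 and 855 in the mandible. The log2 fold changes of Pygo1 and Lef1 were 4.32 and 2.39 (edgeR adjusted p 0.024 and 0.028). Tcf7l2 (2.33) and Bcl9l (1.29) were the other 2 called genes and are named outside the rule. Each of the 5 lost its call in at least 1 of the fits that left out 1 library, all of them without mandible S23, where the edgeR adjusted p ran from 0.0589 to 0.168. S23 is the only library that reads as female. Csnk1a1, the kinase that primes β-catenin for degradation, and the acetyltransferase gene Crebbp were the most abundant, with log2 fold changes of 0.30 and 0.68 that were not called and that went to -0.28 and -0.0058 with the length trend removed.

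Genes that repress, cut or modify cadherins were described last. Of 7 repressor genes 6 were tested and none was called, with a median of 0.80 and 2 at an unadjusted p under 0.05. DESeq2 called 2 higher, and edgeR's exact test and the fit with the length trend removed 1 each. Zeb2, a repressor of Cdh1 that myeloid cells also use, was at 526 CPM at the femur and 845 CPM at the mandible (log2 fold change 0.69, edgeR adjusted p = 0.43). Its log2 fold change ran from 0.0020 to 0.79 over the 13 other settings with 6 libraries. Of the 6 fits that left out 1 library, 1 called Zeb2 higher (without femur S15, edgeR adjusted p = 0.045). Tcf3 was at 91.9 and 91.6 CPM. Of 17 proteases, phosphatases and kinases that act on cadherins or catenins, all tested, Ptprm alone was called. Ptprm, a receptor phosphatase that binds itself on the next cell, had 50, 65 and 44 counts in femur libraries S13, S15 and S18 and 352, 312 and 459 in mandible libraries S16, S19 and S23 (log2 fold change 2.93, edgeR adjusted p = 0.0034). The abundant phosphatase genes Ptpn1 and Ptprj had log2 fold changes of 0.19 and 0.13.

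**Figure D5:**
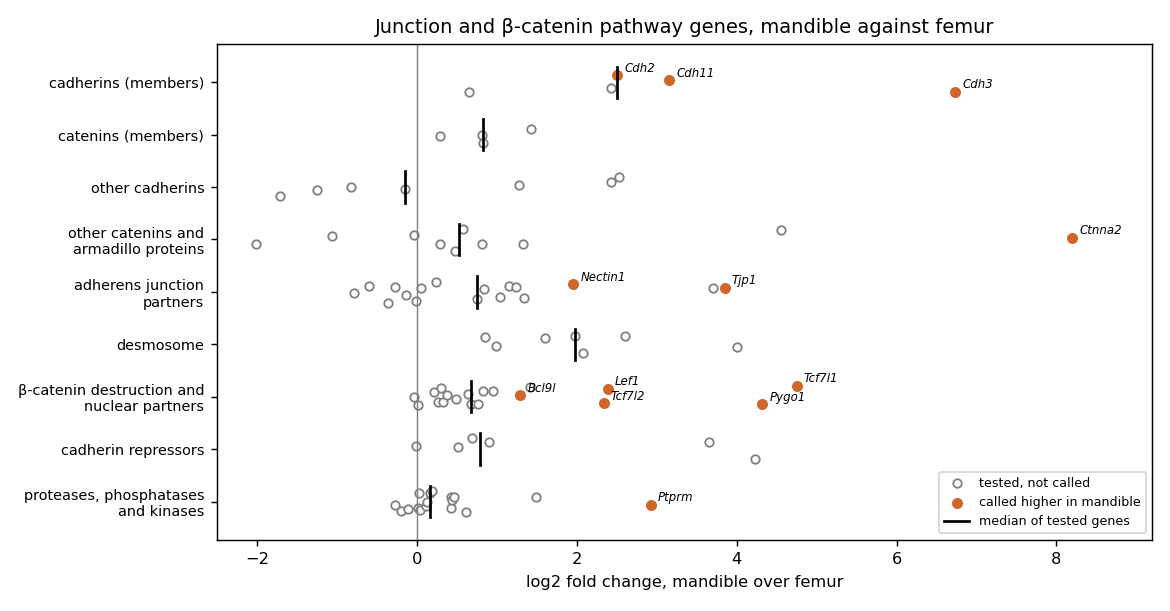
Log2 fold change of the mandible over the femur for every tested gene of the 9 cadherins and catenins and of the 7 related lists (1 point a gene, spread vertically at random). Orange points were called higher in the mandible, open points were not called, black bars are medians, and Ctnna2 lies farthest right at 8.20.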

How the data were processed

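Values deposited by the authors are raw counts, 1 column a library, from featureCounts run on reads that Trimmomatic had trimmed and HISAT2 2.1.0 had aligned to what the methods name GRCm38. The deposited intervals lie inside the gene of GENCODE M21, an annotation of GRCm38, for 3016 of 52029 shared genes, so M21 gave the positions printed here, matched on the Ensembl identifier. Use of strand and of reads with several positions is not given in the sources used here. The test was edgeR 4.0.16 in R 4.3.3: filterByExpr (at least 10 counts, 15 in total), TMM, quasi-likelihood, 0.125 as prior count, no covariates and Benjamini-Hochberg adjustment over 18114 genes, with standard errors as the log2 fold change over the root of F. Permutation tests used log2 of CPM plus 0.1, and the likeness of genes log2 CPM with a prior count of 2. Alternatives were RLE or no normalization factors, other filters and thresholds, limma-voom (3.58.1), DESeq2 1.42.0, the exact test of edgeR, a loess correction for gene length (span 0.4), and each library left out. The tests were tried on simulated data. The limit of 3 counts behind a 0 corresponded to 0.118 to 0.191 CPM before TMM scaling.

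The genes and the 7 related and 13 marker lists were chosen with earlier results of these data known. In each related list, called genes with the 3 largest changes and the 2 genes with the highest mean CPM are named, in marker lists the latter where shown, and genes outside this rule are marked. The authors' pathway lists and qRT-PCR were not used here.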

Additional observations from a re-analysis of the deposited data

How the results depend on the processing

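Cdh2 and Cdh11 were called under all 13 other settings with 6 libraries and in all 6 fits that left out 1 library, with log2 fold changes of 2.01 to 2.62 and 2.56 to 3.30 over the settings. Cdh3 and Cdh13 could not be tested where at least 10 counts were asked of every library. Cdh3 was not called under limma-voom (7.29) or at an adjusted p under 0.01 (6.73), and leaving out 1 library gave 5.61 to 11.11. Cdh1, Cdh13 and the 4 catenins were not called under any setting that tested them, and the length correction reversed Ctnnb1 (-0.0024), Csnk1a1 (-0.28), Crebbp (-0.0058), Ptpn1 (-0.046) and Ptprj (-0.37). Tcf3 reversed under RLE factors (0.018), no factors (0.10), 10 counts in every library (0.0034), DESeq2 (0.018) and limma-voom (0.0048), and Ctnnbl1 under no factors (0.064). Leaving out 1 library, Tcf3 ran from -0.17 to 0.18, Ctnnbl1 from -0.29 to 0.26 and Ptprj from -0.16 to 0.27. The cause was not tested for any of these.

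Without normalization factors 157 genes were called lower. With every counted gene tested 1590 were called, 571 lower, and 17 related genes higher, against 938, 236 and 9. DESeq2 called 1548 (1091 higher, 457 lower, 19 related) and edgeR's exact test 1468 (468 lower, 17 related). At an adjusted p under 0.01 there were 445 (384 higher, 61 lower, 5 related). Leaving out 1 library gave 434 (without mandible S19) to 1565 (without femur S15) calls, 376 to 957 higher, 58 to 608 lower and 4 (without mandible S19 or S23) to 16 (without femur S15) related genes. Shares of CPM not divided by length were 26.8% for Cdh1, 16.6% for Cdh2 and 54.0% for Cdh11 in the femur, and 6.64% for Cdh1 and 69.9% for Cdh11 in the mandible. No paired analysis was possible because the groups share no replicate number. In the femur Cdh3 had 0 to 8 counts and Cdh13 0 to 31 counts a library, so that counting error is large there.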
